A study of Mus musculus with 7 samples.

Results

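The 78 genes described here encode nuclear-coded subunits of the 5 complexes of oxidative phosphorylation. They were chosen by their symbol in the array annotation, by a rule set with earlier results of these data known. Complex I took Ndufa, Ndufb, Ndufc, Ndufs and Ndufv followed by a number, and complex II took Sdha to Sdhd. Complex III took Uqcr and Cyc1, complex IV took Cox4 to Cox8, and complex V took Atp5. The tissue isoforms Ndufa4l2, Cox4i2, Cox7a1 and Cox8b were set apart. The set holds 34 genes of complex I, 4 of complex II, 9 of complex III, 14 of complex IV and 17 of complex V, out of 18193 genes with a probe set that carries a single symbol. Each gene was read from its probe set with the highest mean signal over all arrays.

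RNA of the carotid artery was hybridised to 7 Affymetrix Mouse430_2 arrays, which cover the mouse transcriptome. On 4 arrays the RNA came from ApoE-/+ offspring of a hypercholesterolemic ApoE-/- mother and a wild-type father, named ApoE-null mother 1 to 4 here. On 3 arrays it came from ApoE-/+ offspring of a normocholesterolemic wild-type mother and an ApoE-/- father, named wild-type mother 1 to 3. All offspring thus carried a single null allele of Apoe, and both parents differed between the crosses, so maternal and paternal contributions cannot be told apart. No strain, sex, age or litter is stated by the labels, nor whether an array stands for a single animal or a pool, and p-values therefore measure only the spread between these samples. The series asked how the cross bears on susceptibility of the offspring to atherosclerosis.

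Oxidative phosphorylation takes place in the inner mitochondrial membrane. Complex I oxidises NADH and complex II oxidises succinate, and both pass electrons through ubiquinone to complex III, cytochrome c and complex IV, which reduces oxygen. Complexes I, III and IV pump protons, and complex V, the ATP synthase, uses the resulting gradient to make ATP. Smooth muscle cells, the main cells of the arterial wall, use this pathway beside a high rate of glycolysis, whereas brown adipocytes, which occur in the fat around some vessels, are packed with mitochondria.

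The genes of this pathway are known for promoters that bind the factors NRF1, NRF2 (also called GABP), YY1 and ERR alpha. Their promoter sequences are described as background. Whether the strings relate to the signals on the arrays was not tested. A promoter window of 300 bases, from 250 bases before to 50 bases after the transcription start, was found for 64 of the 78 genes in RefSeq (GRCm38.p6), and 14 genes had no entry in the table used. Each window was searched on both strands for 1 exact string per factor. The NRF2/GABP core CCGGAAG was in 17 of the 64 windows (26.6%), against 9.93% of the 27025 windows in the table. The NRF1 palindrome, the first stretch of capitals in the Cox6a1 sequence shown next, was in 4 of 64 (6.25%), in the windows of Cox6a1, Uqcrc1, Atp5g2 and Atp5k, against 1.07%. The YY1 string AAGATGGCG was in 6 of 64 (9.38%), against 1.64%, and the ERR alpha string TCAAGGTCA in 2 of 64 (3.13%), against 0.466%. The YY1 string holds an ATG and can cover a start codon, and none of the 4 strings is contained in another. At least 1 of the strings was present in 25 of the 64 windows. A match is a description of letters and not a binding site, and the remaining windows say nothing about the factors.

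The 250 bases before the start are shown for Sdhd, the subunit gene with the smallest p between the crosses, and for Cox6a1, a window with both an NRF1 and an NRF2/GABP string. Both run 5′ to 3′ on the strand of the gene, here the minus strand, and capitals mark the strings (CTTCCGG is the NRF2/GABP core read on the other strand). The Sdhd stretch is chr9:50603850-50604099 and the Cox6a1 stretch is chr5:115348959-115349208 in GRCm38.p6.
Sdhd: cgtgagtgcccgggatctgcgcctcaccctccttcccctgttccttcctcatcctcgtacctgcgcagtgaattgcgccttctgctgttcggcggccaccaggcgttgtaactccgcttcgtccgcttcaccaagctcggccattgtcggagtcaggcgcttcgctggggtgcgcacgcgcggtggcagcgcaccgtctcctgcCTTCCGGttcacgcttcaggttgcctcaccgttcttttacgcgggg
Cox6a1: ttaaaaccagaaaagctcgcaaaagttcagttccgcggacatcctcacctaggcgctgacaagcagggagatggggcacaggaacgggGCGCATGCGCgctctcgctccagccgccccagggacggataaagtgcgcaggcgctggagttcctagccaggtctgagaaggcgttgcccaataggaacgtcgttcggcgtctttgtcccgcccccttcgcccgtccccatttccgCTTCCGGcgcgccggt

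The YY1 string lay just after the start in 5 of its 6 genes, at 24 bases in Atp5j2, 30 in Ndufa9, 23 in Ndufc1, 36 in Ndufs4 and 25 in Ndufs7, counted to its first base. In Atp5j it lay 88 bases before the start. The ERR alpha string, present on the opposite strand as TGACCTTGA, began 52 bases before the start of Atp5g3 and 37 bases after that of Sdhd. For comparison, 3 of the YY1 matches and both ERR alpha matches are shown with neighbouring bases on the strand of the gene, with the string in capitals. They lie at chr6:126849097-126849125 (Ndufa9, minus strand), chr13:114388045-114388069 (Ndufs4, minus strand), chr10:80249463-80249491 (Ndufs7, plus strand), chr2:73911360-73911388 (Atp5g3, minus strand) and chr9:50603800-50603823 (Sdhd, minus strand) in GRCm38.p6.
Ndufa9: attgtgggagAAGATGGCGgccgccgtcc
Ndufs4: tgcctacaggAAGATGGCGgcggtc
Ndufs7: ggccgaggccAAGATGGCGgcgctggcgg
Atp5g3: tgttacaaagTGACCTTGAgcgtcttccc
Sdhd: ggttgtagagTGACCTTGAgccct

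All arrays had been scaled to the same 2% trimmed mean before deposit. Probe sets for bacterial transcripts, read as background, reached at most 20.4 on the ApoE-null mother arrays and at most 22 on the wild-type mother arrays. Genes of contractile smooth muscle were high on all 7 arrays, with a summed signal over 7 genes of 25629 to 31772 with an ApoE-null mother and 24801 to 32502 with a wild-type mother. The array of wild-type mother 2 stood apart. Its ratio of 3 prime to 5 prime signal was 7.80 for Gapdh and 6.71 for Actb, against at most 6.56 and 5.23 on the other arrays. Xist, the transcript of the inactive X chromosome, had a signal of 41.2 there and 5174 to 5931 on the other 6 arrays. The summed signal of 12 skeletal muscle genes was 169.7 to 293.7 with an ApoE-null mother, and 196.4, 2815 and 428.3 on wild-type mother 1, 2 and 3. Median differences of the complexes and of several gene lists are given below with and without this array. Other summaries include it unless stated.

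The subunit genes were among the strongly expressed genes of the tissue. The mean signal of 66 of the genes was above 1000, and the median was 3079. After a filter on low mean signal 76 of the 78 genes were tested. Ndufb4, an accessory subunit of complex I, was left out with a signal of 18.4 ± 7.95 on the ApoE-null mother arrays (SD, n = 4) and 17.6 ± 4.00 on the wild-type mother arrays (SD, n = 3). Cox7b2, a testis isoform of complex IV, did not exceed the bacterial probe sets on any array. These 2 genes appear in no count below.

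No subunit gene differed between the crosses after adjustment over all probe sets. The count was 0 of 76 at an adjusted p under 0.05 in limma, where 1 of all 27027 tested probe sets (0.0037%) was called, and the smallest adjusted p among the subunits was 0.459. The log2 difference, always that of the ApoE-null mother group over the wild-type mother group, was positive for 47 and negative for 29 subunits, and positive for 55 of 76 with quantile normalization, 53 of 76 with arrays centred on their medians and 65 of 76 with array weights. Its median was 0.05, against -0.00 for all tested probe sets, and 0.15 with array weights, which gave wild-type mother 2 the lowest weight. For 56 of the 76 subunits it was smaller than 0.2 in size. The 95% interval lay within 0.5 of 0 on the log2 scale for 37 subunits and within 1 of 0 for 71. At an unadjusted p under 0.05 in limma, 7 of 76 subunits were higher with an ApoE-null mother (9.21%, against 4.3% of all tested probe sets) and 1 was lower (against 3.96%). The 2 crosses did not overlap for 5 subunits (6.58%), against 8.02% of all tested probe sets. Sdhd, Atp5b and Ndufa9 were the 3 higher with an ApoE-null mother (against 4.01%), and Sdhc and Ndufb1 the 2 lower (against 4.01%).

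**Figure D1:**
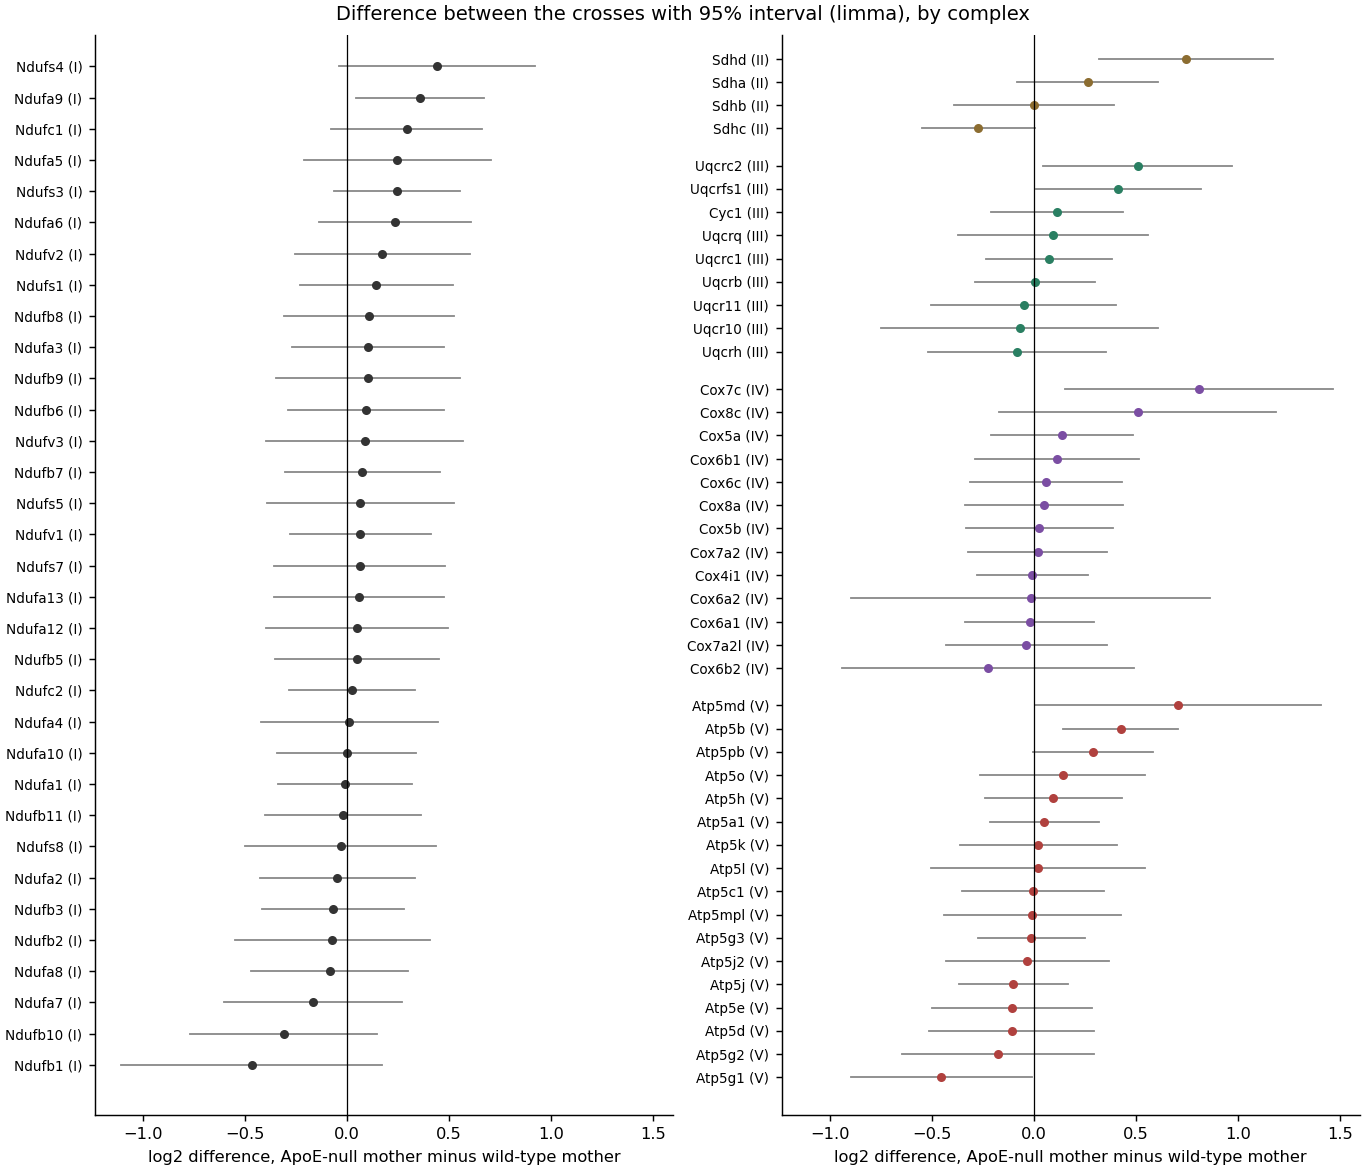
Log2 difference of each tested subunit gene (ApoE-null mother minus wild-type mother) and its 95% interval from limma (76 genes, complex in brackets, sorted within each complex). Most points lie close to 0 with wide intervals, and none passed at an adjusted p under 0.05.

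What the subunit genes shared was their pattern over single arrays. Each gene was expressed as its deviation from its own mean over the 7 arrays on the log2(signal + 2) scale. The median deviation over the 76 subunits was 0.04, 0.03, -0.00 and 0.02 on ApoE-null mother 1 to 4, and -0.20, 0.42 and -0.29 on wild-type mother 1, 2 and 3. The ApoE-null mother arrays thus formed a narrow band between the high array of wild-type mother 2 and the low arrays of wild-type mother 1 and 3. The means of these medians were 0.02 ± 0.02 for the ApoE-null mother arrays (SD, n = 4) and -0.02 ± 0.38 for the wild-type mother arrays (SD, n = 3). The median deviation over all tested probe sets stayed between -0.02 and 0.03 on every array.

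The pattern was found in all 5 complexes. Of the 76 subunits 60 had their highest signal on wild-type mother 2 (78.9%, against 17.6% of all tested probe sets), namely 28 of 33 in complex I, 2 of 4 in complex II, 6 of 9 in complex III, 10 of 13 in complex IV and 14 of 17 in complex V. The lowest signal was on wild-type mother 1 for 24 subunits and on wild-type mother 3 for 40. The SD over arrays was larger with a wild-type mother than with an ApoE-null mother for 73 of 76 subunits (96.1%, against 54.9% of all tested probe sets). The median SD of log2 signal was 0.12 with an ApoE-null mother and 0.42 with a wild-type mother, where over all tested probe sets it was 0.25 and 0.27. These SDs include wild-type mother 2 and were not calculated without it. The median deviation of the subunits was 0.42 on that array, against -0.20 and -0.29 on wild-type mother 1 and 3. A larger spread in that cross apart from this array is therefore not shown. The number of probe sets marked for possible cross-hybridisation or shared transcripts was 28 for the suffix a, 13 for s and 8 for x among the 78.

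**Figure D2:**
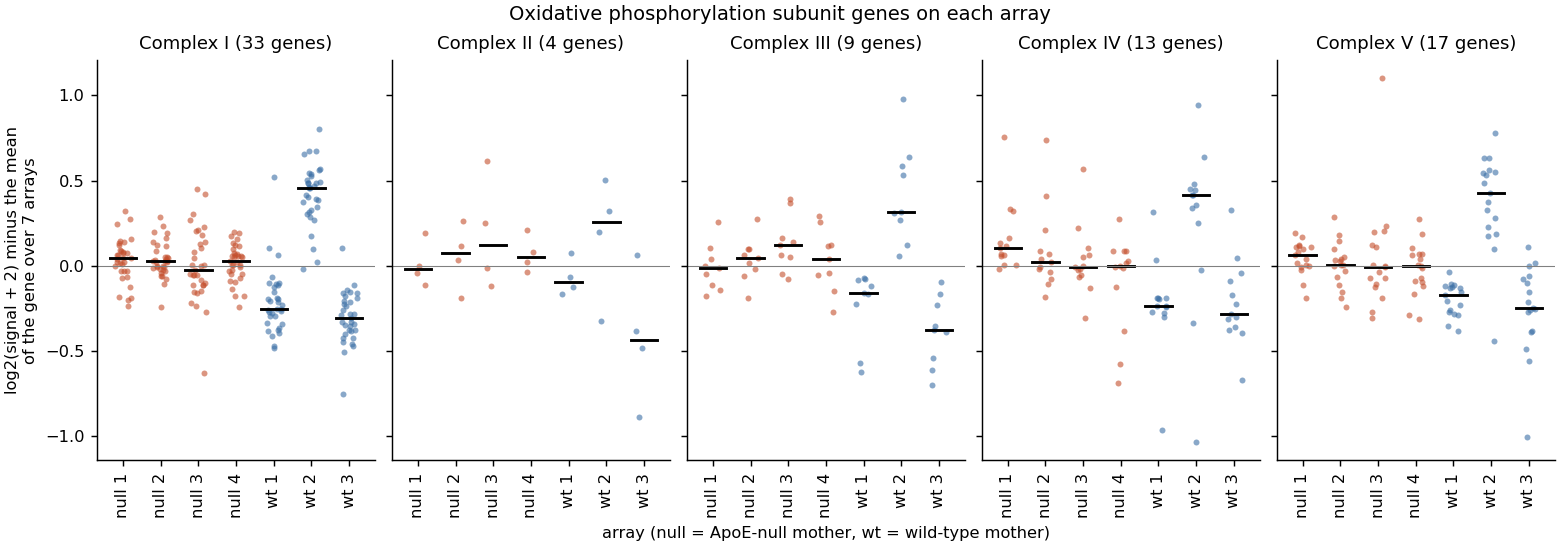
Deviation of each tested subunit gene from its own mean over 7 arrays, in log2(signal + 2), by complex and array (points are genes, black bars are medians, null stands for an ApoE-null mother and wt for a wild-type mother). In every complex the 4 ApoE-null mother arrays lie near 0, wild-type mother 2 lies highest and wild-type mother 1 and 3 lie lowest.

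Complex I is the largest complex and the entry point for NADH. Its 33 tested subunits had a median log2 difference of 0.06, and 22 were positive. The core subunits of the peripheral arm, most of which carry flavin or iron-sulphur clusters (Ndufs1, Ndufs3, Ndufs7, Ndufs8, Ndufv1 and Ndufv2) were positive in 5 of 6 with a median of 0.10, and the 27 accessory subunits were positive in 17 with a median of 0.05. Without wild-type mother 2 these medians were 0.31 for the core and 0.29 for the accessory subunits. Complex medians over the arrays were 0.04, 0.03, -0.02 and 0.03 on ApoE-null mother 1 to 4 and -0.25, 0.46 and -0.30 on wild-type mother 1 to 3.

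Ndufa9, an accessory subunit next to the ubiquinone site, had signals of 2510.7, 2684.0, 3309.9 and 2576.9 with an ApoE-null mother and 2159.6, 2445.6 and 1877.2 with a wild-type mother. All ApoE-null mother arrays were above all wild-type mother arrays, by a narrow margin. The log2 difference was 0.36 (SE 0.14; limma, adjusted p = 0.584). Ndufs4, an accessory subunit whose loss in mice causes a Leigh-like encephalopathy, varied most across the arrays among the complex I subunits. It had signals of 1373.8, 1715.8, 1920.1 and 1453.7 with an ApoE-null mother and 1164.4, 1694.6 and 832.2 with a wild-type mother. The groups overlapped because of wild-type mother 2, and the log2 difference of 0.44 had an SE of 0.22 (limma, adjusted p = 0.631). Other probe sets of Ndufs4 gave values between -0.07 and 0.47.

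Ndufc1, a small membrane subunit, had 5481.3, 6107.4, 6132.4 and 5518.7 with an ApoE-null mother and 4084.7, 6556.7 and 3965.4 with a wild-type mother. It followed the shared pattern, with wild-type mother 2 on top and the other arrays of that cross at the bottom, and its log2 difference was 0.29 (limma, adjusted p = 0.672). Ndufs3, a core subunit of the peripheral arm, departed from it with 2222.4, 2306.6, 2808.0 and 2472.0 with an ApoE-null mother and 2173.2, 2310.2 and 1747.9 with a wild-type mother. Its log2 difference was 0.24 with a standard error of 0.14. Ndufb10, an accessory subunit of the membrane arm, had 1425.7, 1611.7, 1566.2 and 1530.2 with an ApoE-null mother and 1556.0, 2927.0 and 1503.9 with a wild-type mother. Its log2 difference of -0.31 came to 0.00 without wild-type mother 2. Ndufb1, in the same arm, was lower on every ApoE-null mother array, but its signals were weak, at 37.1, 29.0, 21.7 and 33.9 with an ApoE-null mother and 50.5, 39.4 and 37.3 with a wild-type mother. Its log2 difference of -0.47 had an interval of -1.11 to 0.17.

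Complex II, succinate dehydrogenase, is shared with the citric acid cycle and held the subunit with the smallest p. Sdhd, which anchors the enzyme in the membrane, had signals of 1269.9, 1330.7, 1696.7 and 1282.0 with an ApoE-null mother and 1058.1, 885.9 and 598.9 with a wild-type mother. The groups did not overlap, and unlike most subunits Sdhd was not high on wild-type mother 2. The ApoE-null mother arrays averaged 1395 ± 203 (SD, n = 4) and the wild-type mother arrays 848 ± 232 (SD, n = 3). The log2 difference was 0.75 (SE 0.19, 95% interval from 0.32 to 1.17), and it did not pass (limma, adjusted p = 0.459). A second probe set of Sdhd gave 0.81.

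Sdhc, the other membrane anchor, went the opposite way, with 1140.2, 1080.9, 1134.8 and 1201.3 with an ApoE-null mother and 1302.1, 1543.2 and 1290.0 with a wild-type mother. All ApoE-null mother arrays were below all wild-type mother arrays. The log2 difference was -0.27 (SE 0.13; limma, adjusted p = 0.612), and -0.09 on a second probe set. Sdha, the flavoprotein that oxidises succinate, had 3047.2, 3300.0, 3628.3 and 3224.0 with an ApoE-null mother and 2708.3, 3486.9 and 2177.8 with a wild-type mother. Its log2 difference was 0.27, and 2 other probe sets ranged from -0.17 to 0.32. Sdhb, the iron-sulphur subunit, had 4390.6, 4622.9, 4483.5 and 4599.9 with an ApoE-null mother and 4156.0, 6410.6 and 3467.6 with a wild-type mother, and a log2 difference of 0.00 with an interval of -0.39 to 0.39. The estimates of the 4 subunits of this complex, which are present in equal number in the enzyme, thus did not share a direction. None of the 4 passed, and the intervals of Sdha, Sdhb and Sdhc held values of both signs, so a difference in direction is not shown.

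Complex III passes electrons from ubiquinol to cytochrome c. Of its 9 subunits 6 were positive, with a median log2 difference of 0.08. Uqcrc2, a core protein, had signals of 3910.3, 3958.5, 4290.8 and 3151.8 with an ApoE-null mother and 2199.2, 4048.9 and 2136.1 with a wild-type mother. Here wild-type mother 2 lay among the ApoE-null mother arrays and the other arrays of its cross lay far below. The log2 difference was 0.51 (SE 0.21; limma, adjusted p = 0.590), and 0.81 without wild-type mother 2, at which Uqcrc2 had the smallest adjusted p of all subunits, 0.140. Uqcrfs1, the Rieske iron-sulphur protein, had 2479.6, 2743.6, 3307.4 and 3135.7 with an ApoE-null mother and 2441.8, 2663.1 and 1578.6 with a wild-type mother. Its log2 difference was 0.41 (SE 0.18; limma, adjusted p = 0.601), and 0.18 without wild-type mother 3.

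Cyc1, cytochrome c1, stayed between 3175.0 and 3509.0 with an ApoE-null mother and took values of 2969.5, 3883.1 and 2521.9 with a wild-type mother. Its log2 difference was 0.11 (limma, adjusted p = 0.855). Uqcr10, a small subunit, had the largest spread in the complex, with 407.5, 471.6, 494.0 and 365.2 with an ApoE-null mother and 284.9, 868.5 and 374.6 with a wild-type mother. Its log2 difference of -0.07 was 0.40 without wild-type mother 2.

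Complex IV, cytochrome c oxidase, reduces oxygen, and several of its subunits exist as tissue isoforms. Of its 13 tested subunits 8 were positive, with a median log2 difference of 0.03. Cox5a, a subunit on the matrix side, had signals of 5511.5, 5854.6, 5994.1 and 5944.4 with an ApoE-null mother and 4910.3, 7066.8 and 4257.9 with a wild-type mother. Cox6b1, which faces cytochrome c, had 9432.9, 9136.4, 8463.9 and 8550.3 with an ApoE-null mother and 6973.8, 11994.2 and 6614.0 with a wild-type mother. In both genes the 4 ApoE-null mother arrays were close together and the 3 wild-type mother arrays lay on either side of them. The log2 differences were 0.14 and 0.11, with standard errors of 0.16 and 0.18.

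The widely expressed isoforms were strong and close to 0. The log2 difference was -0.01 for Cox4i1, -0.02 for Cox6a1, 0.02 for Cox7a2 and 0.05 for Cox8a, with intervals within 0.5 of 0. The signs of Cox4i1 and Cox6a1 turned with quantile normalization, at 0.03 and 0.02. Cox4i1 had 7656.6, 7256.1, 7514.0 and 8118.7 with an ApoE-null mother and 6677.5, 9095.0 and 7416.4 with a wild-type mother. Cox6a2, the heart and skeletal muscle form of subunit 6a, was weak, with 53.3, 42.5, 41.9 and 31.7 with an ApoE-null mother and 20.5, 82.5 and 43.2 with a wild-type mother. Its highest value was on wild-type mother 2, the array with the highest signals of skeletal muscle genes. The testis forms Cox6b2 (22.2 to 40.1 with an ApoE-null mother, 27.6 to 54.0 with a wild-type mother) and Cox8c (92.9 to 256.6 with an ApoE-null mother, 119.0 to 127.7 with a wild-type mother) were also weak. Their log2 differences were -0.23 and 0.51, and both had overlapping groups. Cox7c was read from a weak probe set, with 90.7, 96.7, 108.1 and 76.8 with an ApoE-null mother and 90.3, 34.2 and 44.6 with a wild-type mother, and its log2 difference of 0.81 had an SE of 0.30 (limma, adjusted p = 0.550).

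Complex V, the ATP synthase, consists of the catalytic F1 head and the membrane part Fo. Its 17 subunits had a median log2 difference of -0.00, with 8 positive. Among the 5 F1 subunits 2 were positive, and among the other 12 subunits 6. Their median log2 differences were -0.00 and 0.01, and 0.16 and 0.27 without wild-type mother 2. Atp5b, the catalytic beta subunit, had signals of 2780.3, 2850.4, 2967.8 and 3114.3 with an ApoE-null mother and 2510.3, 1900.2 and 2163.9 with a wild-type mother. The groups did not overlap, and the array of wild-type mother 2 was the lowest of all 7, opposite to the other F1 subunits. The log2 difference was 0.43 (SE 0.13, 95% interval from 0.14 to 0.71; limma, adjusted p = 0.502).

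The c subunit, which forms the rotating ring of Fo, is encoded by 3 genes with the same mature protein. Atp5g1 had 592.9, 519.7, 490.2 and 477.4 with an ApoE-null mother and 546.9, 1019.7 and 640.1 with a wild-type mother, and was the only subunit lower at an unadjusted p under 0.05. Its log2 difference was -0.45 (SE 0.20; limma, adjusted p = 0.604), and -0.19 without wild-type mother 2. Atp5g2 had 678.3 to 916.3 with an ApoE-null mother and 627.6 to 1244.6 with a wild-type mother, with a log2 difference of -0.18. A second tested probe set of Atp5g2 went the other way, at 0.32. Atp5g3 had 6683.4 to 7617.9 with an ApoE-null mother and 6647.8 to 8534.0 with a wild-type mother, with a log2 difference of -0.01 that was 0.03 with quantile normalization. All 3 genes were highest on wild-type mother 2.

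Atp5md, a small subunit that links ATP synthase dimers, had 1717.3, 1930.8, 3396.7 and 1295.4 with an ApoE-null mother and 1213.9, 1789.3 and 788.0 with a wild-type mother. It varied most in complex V, the groups overlapped, and its log2 difference was 0.71 (SE 0.32; limma, adjusted p = 0.604). Atp5pb, of the peripheral stalk, had 4854.9, 5431.6, 5635.7 and 5024.9 with an ApoE-null mother and 4149.3, 5136.5 and 3662.4 with a wild-type mother, with a log2 difference of 0.29. Atp5j, coupling factor 6 of the same stalk, had 4434.7 to 4793.7 with an ApoE-null mother and 4448.7 to 5825.7 with a wild-type mother, with a log2 difference of -0.10.

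**Figure D3:**
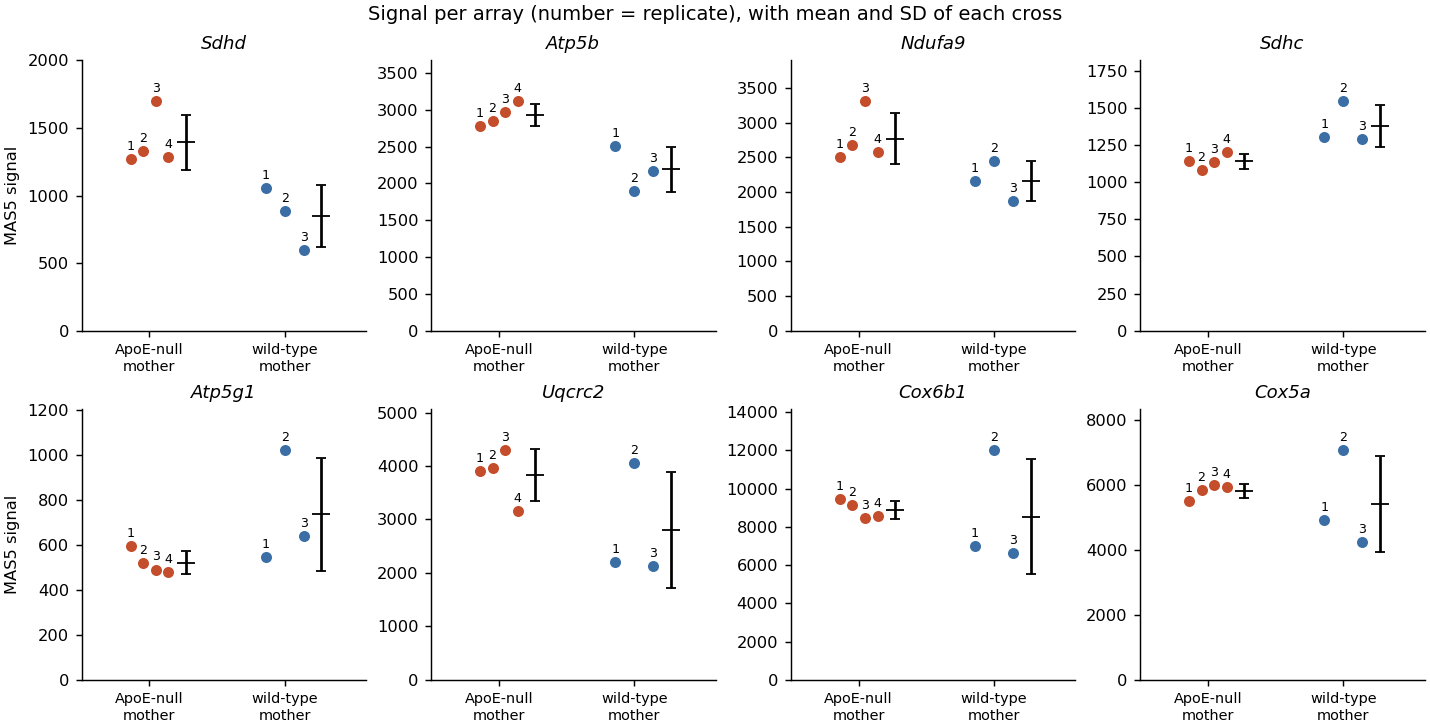
MAS5 signal per array of 8 subunit genes, with the mean and SD of each cross beside the points (4 ApoE-null mother arrays, 3 wild-type mother arrays, numbers are replicates). Sdhd, Atp5b and Ndufa9 do not overlap and are higher with an ApoE-null mother, Sdhc does not overlap and is lower, and Cox6b1 and Cox5a show wild-type mother 2 on top.

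The subunits fell short of a uniform pattern in 16 genes that were not highest on wild-type mother 2. They were Ndufa9, Ndufb1, Ndufs1, Ndufs3 and Ndufs4 of complex I, Sdha and Sdhd of complex II, Uqcrc1, Uqcrc2 and Uqcrfs1 of complex III, Cox7a2l, Cox7c and Cox8c of complex IV, and Atp5b, Atp5md and Atp5pb of complex V. Of these, 14 were highest on an ApoE-null mother array, 10 of them on ApoE-null mother 3. Their log2 difference was positive in 14 of 16 with a median of 0.39, while the 60 subunits highest on wild-type mother 2 had a median of 0.02. This split follows from the same signals that give the difference, so it is a description only.

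How the complexes compared therefore depended on which arrays entered. Without wild-type mother 2 the median log2 difference was 0.29 in complex I, 0.35 in II, 0.28 in III, 0.27 in IV and 0.24 in V, and 72 of 76 subunits were positive. Without wild-type mother 3 the medians were -0.08, -0.05, -0.04, -0.04 and -0.13 in the same order, and 21 of 76 were positive. Without wild-type mother 1 28 of 76 were positive. Leaving out wild-type mother 1 instead gave -0.07 in complex I, 0.10 in II, 0.04 in III, -0.10 in IV and -0.09 in V. With wild-type mother 1 or 3 left out, each complex median moved by less than the pooled SD of its array medians within the crosses. Without wild-type mother 2 this held for complexes I to IV, and only the median of complex V moved by more than its SD of 0.23. The pooled SD was 0.22 in complex II and up to 0.27 in complex I, and it was calculated with wild-type mother 2 included. Whether the complexes differ in these shifts was not tested. With all arrays their medians spanned -0.00 to 0.13.

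With wild-type mother 2 left out, all 4 ApoE-null mother arrays were above both remaining wild-type mother arrays for 46 of 76 subunits (60.5%, against 8.75% of all tested probe sets) and below them for 2 (2.63%, against 9.96%). The 46 comprised 22 of 33 subunits of complex I, 3 of 4 of II, 6 of 9 of III, 6 of 13 of IV and 9 of 17 of V. Most subunits were highest on the array left out here. These counts therefore follow from the shared pattern over single arrays and are a description only. No subunit passed in that fit either (limma, smallest adjusted p = 0.140, with 0.0037% of all tested probe sets called). When any other array was left out, 3 to 5 subunits were higher without overlap, and the share over all tested probe sets was not counted there.

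**Figure D4:**
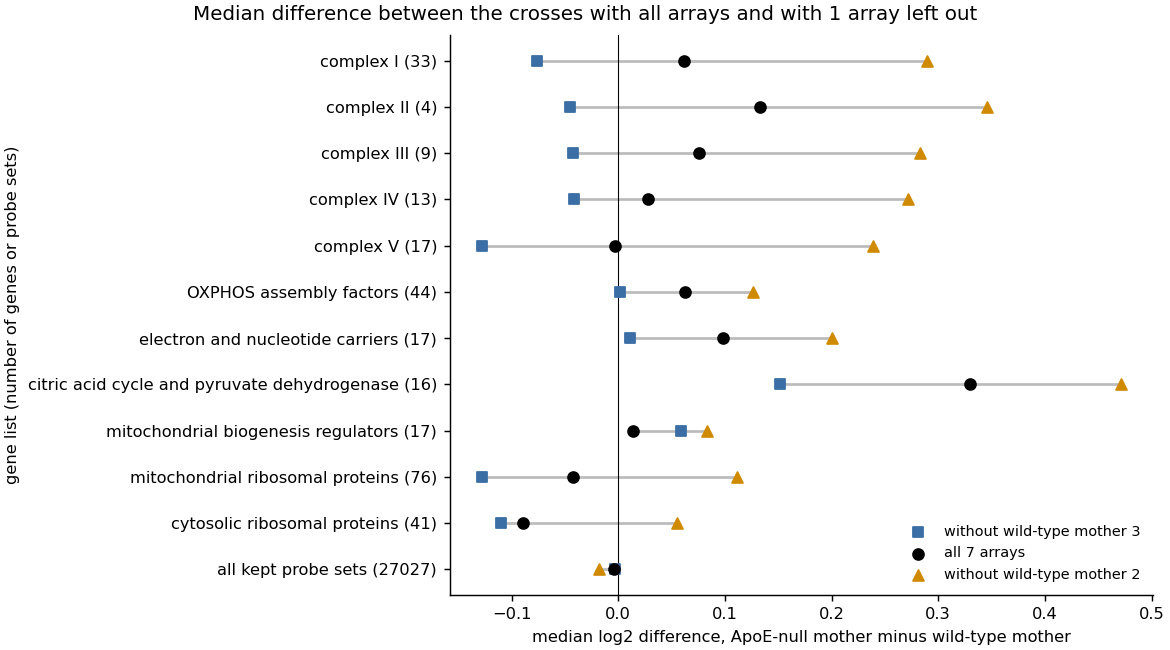
Median log2 difference (ApoE-null mother minus wild-type mother) of each complex, of related gene lists and of all tested probe sets, with all 7 arrays (circles), without wild-type mother 2 (triangles) and with wild-type mother 3 left out (squares). The medians of all 5 complexes are positive without wild-type mother 2 and negative when wild-type mother 3 is left out, while the citric acid cycle list stays positive and all tested probe sets stay near 0.

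The isoform genes that were set apart are markers of particular tissues. Cox7a1 and Cox8b, of heart, skeletal muscle and brown fat, had log2 differences of 1.10 and 0.78 with overlapping groups. Cox7a1 had signals of 497.6, 740.3, 966.8 and 647.7 with an ApoE-null mother and 350.8, 852.3 and 110.9 with a wild-type mother. Cox8b had 372.4, 516.0, 549.9 and 470.0 with an ApoE-null mother and 370.4, 781.5 and 70.2 with a wild-type mother. Both were highest or second highest on wild-type mother 2 and lowest on wild-type mother 3. Ndufa4l2, a form of Ndufa4 induced by low oxygen, was lower without overlap, with 63.4, 70.5, 61.1 and 84.3 with an ApoE-null mother and 211.4, 261.7 and 100.6 with a wild-type mother. Its log2 difference of -1.33 did not pass (limma, adjusted p = 0.415), and Ndufa4 itself, named for complex I and since found to be a subunit of complex IV, had a log2 difference of 0.01. Ndufa4 is counted with complex I here, after its symbol. Cox4i2, the lung and low-oxygen form of subunit 4, stayed at 16.1 to 34.6 with an ApoE-null mother and 17.8 to 31.6 with a wild-type mother.

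Markers of brown fat were measured on all arrays, and none of 12 genes passed the test. Cox7a1 and Cox8b, described above, are among the 12. Without overlap 2 of 12 were higher, against 4.01% of all tested probe sets. At an unadjusted p under 0.05 in limma 4 of 12 were higher, against 4.3%. Of these genes 11 had a positive log2 difference, with a median of 0.70 that was 1.37 without wild-type mother 2 and 0.27 when wild-type mother 3 was left out. The summed signal overlapped between the crosses, at 10364 to 15956 with an ApoE-null mother and 7970, 12227 and 4449 on wild-type mother 1, 2 and 3. None of the 12 was at the bacterial background on all arrays. Ucp1, the uncoupling protein that defines brown fat, had 3146.6, 4614.3, 5059.5 and 3886.9 with an ApoE-null mother and 1447.5, 2297.1 and 420.1 with a wild-type mother. Ucp1 was lower on wild-type mother 2 than on every ApoE-null mother array, which held for 4 of the 76 subunits (Ndufa9, Sdhd, Cox7c and Atp5b). Skeletal muscle genes were highest on wild-type mother 2 in 10 of 10 tested genes. Thymocyte markers had a summed signal over 9 genes of 434.9 to 741.9 with an ApoE-null mother and 58 to 170.5 with a wild-type mother, without overlap, although none of them passed the test. Erythroid markers had a sum over 3 genes of 495.8 to 1207 with an ApoE-null mother and 279.8 to 650.7 with a wild-type mother, with overlap. In a bulk sample fewer cells of a type and less RNA per cell cannot be told apart, and the part of brown fat, skeletal muscle, thymocytes, blood cells, RNA quality or sex in the values of the subunits and the lists described next was not tested.

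**Figure D5:**
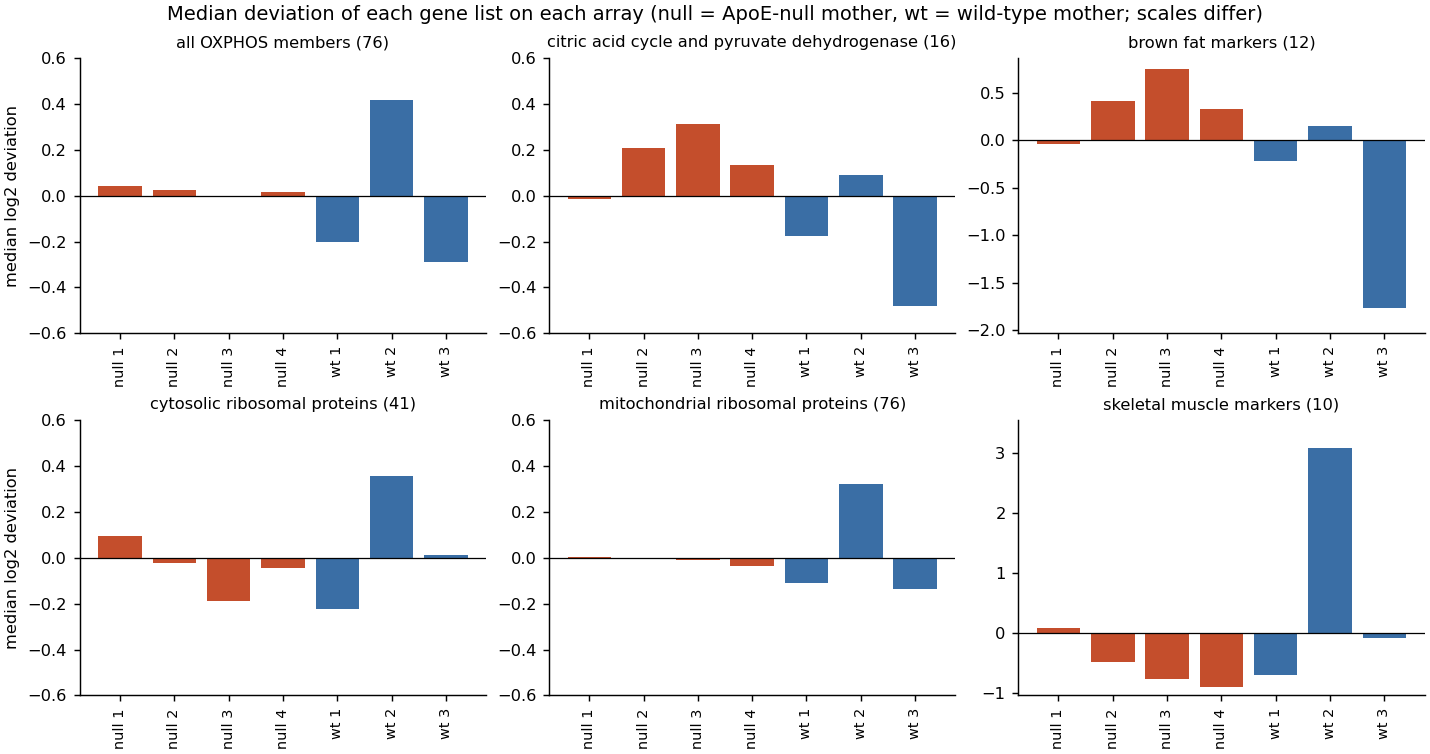
Median deviation of each gene list from the gene means on each array, in log2(signal + 2), with the number of tested genes in brackets (null stands for an ApoE-null mother and wt for a wild-type mother, and vertical scales differ). The subunit genes and both lists of ribosomal proteins are highest on wild-type mother 2, the citric acid cycle and brown fat lists are lowest on wild-type mother 3, and skeletal muscle genes stand out on wild-type mother 2.

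The wider pathway was read from lists of related genes. None of the lists described here held a gene that passed at an adjusted p under 0.05. Of 16 tested genes of the citric acid cycle and pyruvate dehydrogenase, 16 were positive, with a median log2 difference of 0.33, against 0.05 for the subunits and -0.00 for all tested probe sets. Leaving out wild-type mother 2 gave a list median of 0.47, and leaving out wild-type mother 3 one of 0.15. At an unadjusted p under 0.05, 7 of 16 were higher, against the 4.3% of all tested probe sets, and 4 of 16 were highest on wild-type mother 2, against 60 of 76 subunits. Pdhb, the beta subunit of pyruvate dehydrogenase, had signals of 3980.7, 4163.8, 4353.4 and 3656.4 with an ApoE-null mother and 2836.4, 3318.9 and 1756.3 with a wild-type mother, a log2 difference of 0.66 (limma, adjusted p = 0.484). Pdhx, the binding protein of the same enzyme, had 163.6, 217.1, 280.9 and 206.9 with an ApoE-null mother and 137.1, 149.2 and 92.7 with a wild-type mother, a log2 difference of 0.77. Neither gene overlapped between the crosses. Both were also lower on wild-type mother 2 than on every ApoE-null mother array, as were Ndufa9, Sdhd, Cox7c and Atp5b among the subunits.

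The carriers that feed and link the complexes had 11 of 17 positive genes and a median of 0.10, which was 0.20 without wild-type mother 2 and 0.01 when wild-type mother 3 was left out. Etfa and Etfdh, which bring electrons from fatty acid oxidation to ubiquinone, had log2 differences of 0.64 and 0.65 with overlapping groups. Etfa had 2039.3, 2576.6, 3267.1 and 3390.2 with an ApoE-null mother and 2079.3, 1867.2 and 1447.3 with a wild-type mother. Assembly factors of the complexes had 26 of 44 positive genes and a median of 0.06. The median was 0.13 without wild-type mother 2 and 0.00 when wild-type mother 3 was left out, and 16 of 44 (36.4%) were highest on wild-type mother 2. This list also counts Ndufab1, a complex I subunit gene that the symbol rule does not reach, with a log2 difference of 0.19. Cox18, which inserts a mitochondrial subunit of complex IV, had 313.5, 328.7, 349.7 and 312.6 with an ApoE-null mother and 226.2, 226.7 and 256.3 with a wild-type mother, without overlap. Its log2 difference was 0.46 (limma, adjusted p = 0.515). Ndufaf1, an assembly factor of complex I, had a log2 difference of 0.56.

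Of the subunits coded in mitochondrial DNA, 1 was read, ND5 of complex I. It had 12331.1, 12098.6, 11087.0 and 10706.5 with an ApoE-null mother and 10075.1, 13913.4 and 9575.1 with a wild-type mother. Its order of arrays, with wild-type mother 2 highest and wild-type mother 1 and 3 lowest, was that of the nuclear-coded subunits, and its log2 difference was 0.06, or 0.23 without wild-type mother 2 and -0.04 when wild-type mother 3 was left out. Regulators of mitochondrial biogenesis had 10 of 17 positive genes and a median of 0.01, against 0.08 without wild-type mother 2 and 0.06 when wild-type mother 3 was left out. Esrrg, a nuclear receptor, and Ppargc1b, a coactivator, had log2 differences of 0.82 and 0.55 without overlap. Ppargc1b had 355.4, 388.0, 381.5 and 361.1 with an ApoE-null mother and 326.5, 282.6 and 176.8 with a wild-type mother (limma, adjusted p = 0.550), and 1 of 17 regulators was highest on wild-type mother 2.

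Ribosomal proteins, which like many of the subunits have short and abundant transcripts, shared the height of wild-type mother 2. Of 41 cytosolic ribosomal protein genes 35 were highest there (85.4%), and of 76 mitochondrial ones 50 (65.8%), against 78.9% of the subunits. The median deviations of the cytosolic list were 0.09, -0.02, -0.19 and -0.04 on ApoE-null mother 1 to 4 and -0.22, 0.36 and 0.01 on wild-type mother 1 to 3. On wild-type mother 3 the cytosolic list was thus not low, whereas the subunits were at -0.29 and the mitochondrial ribosomal list at -0.14. Median log2 differences were -0.09 for the cytosolic and -0.04 for the mitochondrial list, and both turned positive without wild-type mother 2, at 0.05 and 0.11. Leaving out wild-type mother 3 gave -0.11 and -0.13. Rpl8 of the cytosolic ribosome was at -0.23 and Rps27 at 0.71, and Mrps28 and Mrpl39 of the mitochondrial ribosome were at -0.35 and 0.27 on the log2 scale.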

How the data were processed

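The authors deposited 1 MAS5 signal per probe set and array, an intensity on a linear scale. Per the submitters' processing notes, the software was GCOS, its version not given in the sources used here. RNA was amplified in 2 cycles from an oligo-dT primer, per the labels' protocols, which favours 3 prime ends. The deposited scaling was kept. Groups follow the cross in the labels. Replicate numbers follow the order of the samples and pair nothing. Signals were taken as log2(signal + 2), the pseudocount being the rounded 10th percentile, so that differences of weak genes are understated. The 64 control probe sets and those with a mean signal up to the 40th percentile (23.6) were left out, which kept 27027 of 45101. limma 3.58.1 under R 4.3.3 (lmFit, eBayes with an intensity trend) compared the crosses, with p-values adjusted by Benjamini-Hochberg over the kept probe sets and 0.05 as the threshold. The number of arrays limits the precision.

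The members, lists and rules were chosen with earlier results of these data known. Named subunits were the genes with the smallest unadjusted p in each complex (6, 3, 5 and 5 in complexes I, III, IV and V), all of complex II, the tissue isoforms and c subunit genes, the most variable gene of each complex, the isoforms set apart and 2 genes per list. Ndufa4, Ucp1, the genes left out by the filter and those outside the shared pattern were named after their values were seen. Of the 78 genes, 46 had several kept probe sets, and in 19 of these the probe sets differed in sign. Symbols were those of the platform annotation, and all 78 stand unchanged in the GRCm38.p6 gene table. The fit was tested on simulated data. Alternatives were another pseudocount, filter, normalization, variance model, array weights, a mean over probe sets, and leaving out each array.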

Additional observations from a re-analysis of the deposited data

Results flagged for a closer look

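The signal of Sdhd on ApoE-null mother 3, 1696.7, stood apart from the other ApoE-null mother arrays, at 1269.9, 1282.0 and 1330.7. Its gap to the nearest of them was 0.858 of the range of the group, above Dixon's 95% critical value for 4 samples. Of the 55 quantities examined in this way over the 4 arrays, 1 was past the limit, where chance gives about 1 in 20. The log2 difference of Sdhd stayed between 0.52 and 0.92 when single arrays were left out.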

How the results depend on the processing

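No subunit was called under any of the settings tried, with 0 of 76 also when each array was left out. Over all probe sets 1 was called at an adjusted p under 0.05 in the reported limma fit. The count was 2 with quantile normalization or array weights, 0 without an intensity trend, and 0 to 18 when each array was left out. At an unadjusted p under 0.05 in limma, the reported fit had 1161 probe sets higher and 1069 lower. Subunits without overlap numbered 5 in the reported fit (against 8.02% of all tested probe sets), 4 with arrays centred on their medians and 7 with a mean over probe sets. They numbered 5 to 48 when each array was left out. The 48 were without wild-type mother 2, where 8.75% of all tested probe sets were higher and 9.96% lower without overlap. The share over all tested probe sets was not counted for the other left-out arrays. The median of complex V was -0.13 to 0.24 when each array was left out. The cause of these shifts was not tested. Of 217 values of 31 named subunits under settings other than a left-out array, 207 kept their direction and 10 reversed, in 5 genes whose differences were close to 0. These were Cox4i1, Cox6a1 and Atp5g3 at 0.0314, 0.0232 and 0.0271 with quantile normalization, Cox4i1 and Atp5g3 at 0.00778 and 0.00323 with arrays centred on their medians, and, with array weights, Uqcr10 at 0.15, Cox4i1 at 0.0283, Cox6a1 at 0.0367, Cox6a2 at 0.15 and Atp5g3 at 0.0283. When each array was left out, 188 of 217 values kept their direction and 29 reversed, in 15 genes. Their ranges were -0.48 to 0.00203 for Ndufb10, -0.19 to 0.25 for Sdhb, -0.0282 to 0.28 for Cyc1, -0.40 to 0.40 for Uqcr10, -0.11 to 0.12 for Cox4i1, -0.0167 to 0.35 for Cox5a, -0.14 to 0.16 for Cox6a1, -0.50 to 0.45 for Cox6a2, -0.0415 to 0.39 for Cox6b1, -0.43 to 0.0282 for Cox6b2, -0.11 to 0.23 for Cox7a2, -0.0929 to 0.27 for Cox8a, -0.40 to 0.0915 for Atp5g2, -0.0798 to 0.10 for Atp5g3 and -0.18 to 0.0124 for Atp5j. Weak probe sets, such as those of Ndufb1, Cox6a2, Cox6b2 and Cox7c, lie close to the bacterial signals, which limits what their differences show. No paired analysis was possible because the labels give the crosses no shared replicate numbers.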
